A study of Mus musculus with 2 samples.

Results

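Of the 22238 protein-coding genes of the GENCODE M1 annotation, 70 carry the symbol of a sialyltransferase, galactosyltransferase, N-acetylglucosaminyltransferase, N-acetylgalactosaminyltransferase, fucosyltransferase or alpha-mannosidase of glycoprotein and glycolipid synthesis. They were chosen by their symbols, which begin with St3gal, St6gal, St8sia, B4galt, B3galt, B3gnt, Galnt, Man1a, Man1b, Man1c, Man2a, Mgat or Fut, and grouped into 11 families. GATA4-occupied sites (OS) were tied to them by position: an OS belonged to a gene when its midpoint lay in the gene body or within 10 kb of it. By this rule 25 of the 4409 common GATA4 OS lay at 15 of the 70 genes, and 55 genes had none. The genes were put together with these sites in view, so the counts of OS are given as a description and were not tested.

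GATA4 was immunoprecipitated with the C-20 antibody from whole liver of adult mice on a mixed C57BL/6 x Sv129 background, 2 to 3 months old by the labels, which name no treatment or altered allele, and liver input DNA was the background of the peak calls. The methods of the study give a somewhat higher age range than the labels. The labels list 1 ChIP sample and 1 input sample. Per the methods of the study each ChIP replicate pooled a pair of mice, and the deposited lists cover both replicates together, so that no value has a replicate error. The tissue was not sorted: from the lists, the site of a hepatocyte and that of another liver cell cannot be told apart. Peak lists hold no expression values against which the tissue label could be checked. In the study, hepatocyte-specific excision of Gata4 removed GATA4 from the sites examined by ChIP-qPCR, at the factor X, FOG1, HNF4α and HNF6 genes. The genes described here were not among those sites. OS of the common list are those found by both SPP and MACS2, 2 peak callers that compare ChIP reads with input reads. All peaks carry a score of 1000, which holds no information on strength, and the number of a peak in its list is given in its place, although its order is not explained in the files. The files hold no read counts, so the depth behind a single OS is unknown. Intervals are Wilson 95% intervals over genes or sites of 1 pooled sample and cover counting error only.

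Glycoproteins leave the endoplasmic reticulum with mannose-rich N-glycans. In the Golgi, alpha-mannosidases remove mannose, the Mgat enzymes start the branches of complex N-glycans with N-acetylglucosamine, galactosyltransferases extend the branches and sialyltransferases cap them, while the Galnt enzymes start O-glycans on serine and threonine. Hepatocytes secrete most plasma glycoproteins, and the galactose that is exposed when sialic acid is missing is bound by the asialoglycoprotein receptor of the same cells.

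GATA factors bind the letters WGATAR, in which W is A or T and R is A or G, and the 4 words these letters allow were searched on both strands. The sequences of 12 OS are given because the results turn on them: the earliest OS in the common list of the St3gal, St6gal, B3gnt, B4galt, Man2a, Galnt and Mgat families, 3 of the OS within 1 kb of a TSS, OS with WGATAR matches close to each other and 2 OS without WGATAR. All are of the plus strand of mm9, and stretches of 200 bases around the midpoint are given for wider OS. Capitals mark WGATAR on either strand in the first 10 sequences.
St3gal4, OS 4, chr9:34866665-34866864: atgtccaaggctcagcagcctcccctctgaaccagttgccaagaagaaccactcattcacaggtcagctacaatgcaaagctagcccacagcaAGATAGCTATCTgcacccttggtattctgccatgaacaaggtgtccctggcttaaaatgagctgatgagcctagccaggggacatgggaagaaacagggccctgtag
St3gal5, OS 198, chr6:72112156-72112355: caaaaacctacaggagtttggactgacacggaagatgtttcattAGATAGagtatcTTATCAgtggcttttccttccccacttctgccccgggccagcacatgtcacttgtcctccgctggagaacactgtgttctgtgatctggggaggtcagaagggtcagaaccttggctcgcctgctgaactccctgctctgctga
St3gal3, OS 327, chr4:117795592-117795855: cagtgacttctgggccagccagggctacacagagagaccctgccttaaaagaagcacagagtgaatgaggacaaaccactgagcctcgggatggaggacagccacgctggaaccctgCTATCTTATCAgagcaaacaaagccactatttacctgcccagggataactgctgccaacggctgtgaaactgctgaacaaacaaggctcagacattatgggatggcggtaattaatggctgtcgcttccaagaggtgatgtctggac
St6gal1, OS 304, chr16:23218532-23218803: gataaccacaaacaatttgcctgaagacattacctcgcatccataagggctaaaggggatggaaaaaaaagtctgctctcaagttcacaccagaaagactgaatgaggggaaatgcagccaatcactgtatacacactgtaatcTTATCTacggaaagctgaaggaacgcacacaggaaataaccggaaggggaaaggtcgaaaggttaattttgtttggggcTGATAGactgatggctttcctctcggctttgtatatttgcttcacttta
B3gnt2, OS 4359, chr11:22732057-22732256: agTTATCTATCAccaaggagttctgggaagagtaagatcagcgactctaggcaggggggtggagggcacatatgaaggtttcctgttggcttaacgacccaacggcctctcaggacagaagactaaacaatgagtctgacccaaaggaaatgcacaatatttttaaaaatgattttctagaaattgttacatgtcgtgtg
B4galt7, OS 2299, chr13:55720778-55720909: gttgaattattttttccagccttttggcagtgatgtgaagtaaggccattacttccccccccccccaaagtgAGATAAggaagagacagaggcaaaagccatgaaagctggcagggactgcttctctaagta
Man1c1, OS 1897, chr4:134219138-134219299: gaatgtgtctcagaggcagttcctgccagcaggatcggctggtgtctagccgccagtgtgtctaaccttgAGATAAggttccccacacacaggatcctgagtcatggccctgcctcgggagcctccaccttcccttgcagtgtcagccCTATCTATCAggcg
Man2a1, OS 901, chr17:64967263-64967442: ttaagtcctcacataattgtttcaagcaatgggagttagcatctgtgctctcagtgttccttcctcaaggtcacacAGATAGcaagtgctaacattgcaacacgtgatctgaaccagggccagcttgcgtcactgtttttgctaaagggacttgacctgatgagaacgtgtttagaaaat
Galnt2, OS 3708, chr8:126755710-126755909: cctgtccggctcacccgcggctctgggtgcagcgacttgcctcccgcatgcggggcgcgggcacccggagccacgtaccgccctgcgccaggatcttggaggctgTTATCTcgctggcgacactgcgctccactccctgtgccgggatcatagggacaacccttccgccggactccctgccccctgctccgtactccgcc
Mgat1, OS 1327, chr11:49059140-49059322: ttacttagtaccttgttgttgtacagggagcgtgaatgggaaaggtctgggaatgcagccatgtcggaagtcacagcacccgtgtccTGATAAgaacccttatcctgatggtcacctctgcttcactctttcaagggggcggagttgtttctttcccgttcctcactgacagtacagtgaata
In the last 2 sequences, which hold no WGATAR, capitals mark CAAAGTCCA, a word of HNF4 sites, and TGTTTGC, a word of forkhead sites, at Man1a, and the E-box CAGCTG at St3gal2, each on either strand.
Man1a, OS 2516, chr10:53793452-53793552: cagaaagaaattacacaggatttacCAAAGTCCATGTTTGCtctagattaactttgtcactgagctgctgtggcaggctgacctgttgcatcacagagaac
St3gal2, OS 3067, chr8:113455620-113455725: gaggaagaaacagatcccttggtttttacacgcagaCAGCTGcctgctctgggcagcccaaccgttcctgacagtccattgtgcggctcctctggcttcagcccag

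The share of genes with at least 1 OS was 15 of 70, or 21.4% (13.4 to 32.4), and it was 13.7% over all protein-coding genes. At least 2 OS were found at 5 genes, 7.14% (3.09 to 15.7), beside 3.02% of all protein-coding genes, and at least 3 OS at 3 genes, 4.29% (1.47 to 11.9), beside 0.935%. Since OS helped to choose the genes, nothing is read from these differences. In the MACS2 list alone, 19 genes had a peak, 27.1% (18.1 to 38.5), beside 17.4% of all protein-coding genes. The 3 genes with the most OS were Man1a and St3gal5 with 4 each and Man2a1 with 3, and the 2 genes with 2 were St3gal2 and St3gal4. Each of the other 10 genes had 1.

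Gene length differed between the 70 genes and all protein-coding genes. The median gene body was 45.5 kb for the 70 genes and 15.5 kb for all protein-coding genes, and within the families it was 61.8 kb with an OS and 41.8 kb without. The part of length in the share of genes with an OS was not tested, and the shares are given by length class. An OS was found at 1 of 16 genes under 10 kb, 6.25% (1.11 to 28.3), beside 7.35% of all genes of that length. It was found at 4 of 21 genes of 10 to 50 kb, 19% (7.67 to 40), beside 14.2%. From 50 to 100 kb there were 4 of 15, 26.7% (10.9 to 52), beside 20.6%, and at 100 kb or over 6 of 18, 33.3% (16.3 to 56.3), beside 28.1%. In every length class the share of all genes lay within the interval of the glycosyltransferase and mannosidase genes. With 15 to 21 genes per class these intervals are wide and would take in very different shares, so nothing is read from this. Per 100 kb of gene body and flanks there were 0.354 OS at these genes and 0.254 at all protein-coding genes.

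**Figure D1:**
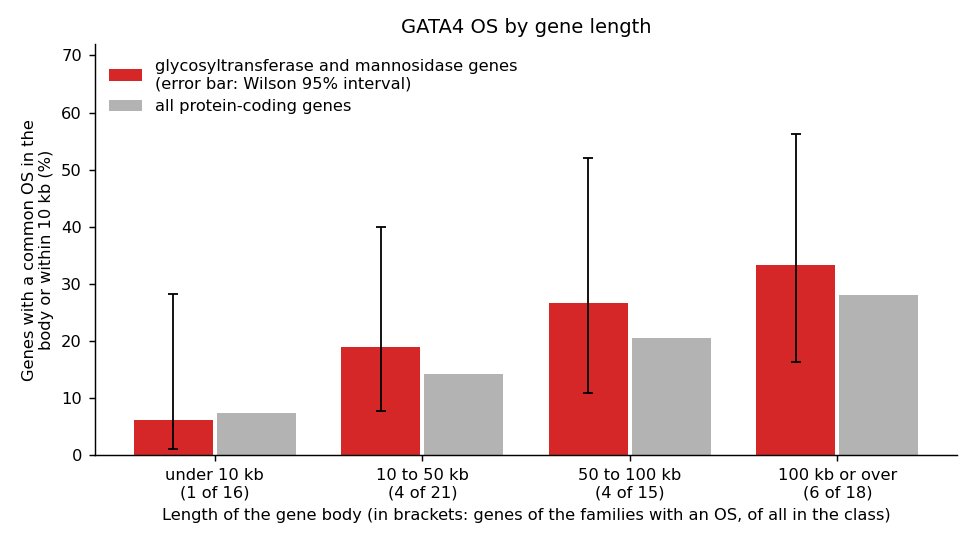
Share of genes with a common GATA4 OS in the gene body or within 10 kb, in percent, by the length of the gene body, for the glycosyltransferase and mannosidase genes (red, Wilson 95% interval) and all protein-coding genes (grey). Both shares are higher in longer genes, from 6.25% and 7.35% under 10 kb to 33.3% and 28.1% at 100 kb or over. Each grey bar ends within the red interval, but the red intervals are wide and nothing is read from this.

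The OS were unevenly spread over the 11 families. Over all protein-coding genes, 13.7% had an OS, at 0.254 OS per 100 kb, and the counts by family were not tested against these values. Sialyltransferases of the St3gal family, which link sialic acid to galactose in alpha-2,3 position, had an OS at 4 of 6 genes and 9 OS in all, 1.58 per 100 kb. Mannosidases of the Man1 group, which trim the outer mannoses, had 6 OS at 3 of 4 genes, 1.12 per 100 kb, and the Man2a group, which acts after Mgat1, had 3 OS at 1 of 2 genes, 1.39 per 100 kb. Together the St3gal and mannosidase genes held 18 of the 25 OS at 8 of 12 genes, or 1.36 per 100 kb. Their median gene body was 63.6 kb, and 20.6% of all protein-coding genes of 50 to 100 kb had an OS. This pair of groups was put together after its OS were seen and was given no test. The other 58 genes held 7 OS at 7 genes, 0.122 per 100 kb. They are what the same choice left over, so nothing is read from the contrast between the sets.

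Galactosyltransferases of the B4galt family had 1 OS each at 3 of 7 genes, B4galt3, B4galt6 and B4galt7, without OS at B4galt1, B4galt2, B4galt4 and B4galt5. St6gal1 but not St6gal2 had an OS. One gene each had an OS among the 9 of the B3gnt family (B3gnt2), the 13 of the Galnt family (Galnt2) and the 8 of the Mgat family (Mgat1). No OS lay at the 6 St8sia genes, whose products build di- and polysialic acid, at the 5 B3galt genes B3galt1, B3galt2, B3galt4, B3galt5 and B3galt6, or at the 8 fucosyltransferase genes Fut1, Fut2, Fut4, Fut7, Fut8, Fut9, Fut10 and Fut11. The remaining genes without OS were St3gal1 and St3gal6, Man1a2, Man2a2, Mgat2, Mgat3, Mgat4a, Mgat4b, Mgat4c, Mgat5 and Mgat5b, B3gnt1, B3gnt3, B3gnt4, B3gnt5, B3gnt6, B3gnt7, B3gnt8 and B3gnt9-ps, and Galnt1, Galnt3, Galnt4, Galnt5, Galnt6, Galnt7, Galnt9, Galnt10, Galnt11, Galnt12, Galnt13 and Galnt14.

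Several of the longest genes were without an OS. Mgat4c, with a gene body of 710 kb, and Galnt13, with 682 kb, had none, nor did Mgat5 (279 kb), whose product adds the beta-1,6 branch of N-glycans, and Fut8 (237 kb), whose product adds core fucose. By contrast, B4galt3 spans 6.57 kb and had 1.

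Among the sialyltransferase genes, St3gal4 (chr9:34854164-34924395, minus strand) held the OS with the lowest number in the common list. Its product sialylates N-glycans of plasma glycoproteins. OS 4 (chr9:34866579-34866951) was 373 bp wide and lay in intron 1, 57630 bp downstream of the TSS, and MACS2 listed it as its peak 27. It held 2 WGATAR matches, AGATAG and its reverse complement directly next to each other, which form the run of capitals in its sequence. The other OS of the gene, OS 2695 (chr9:34846725-34846843), lay 7380 bp past the gene end with 1 match, and the TSS of Kirrel3 was nearer to it.

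St3gal5 (chr6:72047607-72104564, plus strand), which encodes GM3 synthase, the entry enzyme to gangliosides, had 4 OS spread from its upstream flank to its downstream flank. OS 2358 lay 4304 bp upstream of the TSS with 2 WGATAR matches, and MACS2 listed it as peak 4358. OS 3665 lay in intron 1, 7101 bp downstream, with 2 matches, MACS2 peak 4745. OS 784 lay in intron 3, 43812 bp downstream, with 1 match, MACS2 peak 1517. OS 198 (chr6:72112084-72112429), the earliest of them in the common list, lay 7692 bp past the gene end with 3 matches, of which the sequence above shows 2, and was MACS2 peak 148. All 4 OS held WGATAR, and the 2 outside the gene body lay on opposite sides of it.

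St3gal2 (chr8:113443822-113496380, plus strand) had an OS close to a TSS. OS 3067 (chr8:113455620-113455725) lay 149 bp upstream of the nearest TSS of the gene, in intron 1 of its longest transcript, and held no WGATAR. OS 1110 lay in intron 3 with 2 matches, nearer to the TSS of Ddx19a. St3gal3 (chr4:117604759-117807519, minus strand), whose product acts on N-glycans like that of St3gal4, had OS 327 in intron 1, 11764 bp downstream of a TSS, with 2 matches and MACS2 number 240. St6gal1 (chr16:23224813-23360421, plus strand), which encodes the enzyme that puts alpha-2,6-linked sialic acid on plasma glycoproteins, had OS 304 at 6146 bp upstream of its nearest TSS, with 2 matches and MACS2 number 361. Of the sialyltransferase OS, OS 4, OS 198, OS 304, OS 327 and OS 784 were numbered below 1102, where the first of 4 equal parts of the common list ends. OS 1110, OS 2358, OS 2695, OS 3067 and OS 3665 were numbered above it.

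Among the mannosidase genes, Man1a (chr10:53624594-53795602, minus strand), which encodes Golgi alpha-mannosidase IA, had 4 OS, all in intron 2 of its longest transcript. OS 2516 lay 2013 bp downstream of the nearest TSS and OS 3980 lay 16296 bp downstream, and neither held WGATAR. OS 4048 and OS 3162 lay 36864 and 37375 bp downstream, with midpoints 511 bp apart, and held 1 and 3 matches. The MACS2 numbers of the 4 OS ran from 3240 to 4508. The pair nearer to the TSS was thus without WGATAR and the pair farther away had it.

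Man2a1 (chr17:64950076-65104450, plus strand) encodes Golgi alpha-mannosidase II, which removes the last outer mannoses of hybrid glycans. OS 901 (chr17:64967263-64967442) lay in intron 1, 17276 bp downstream of the TSS, with 1 match and MACS2 number 1117. OS 1990 lay in intron 16, 7632 bp from the nearest TSS of the gene but 120515 bp from that of its longest transcript, with 2 matches and MACS2 number 3833. OS 2035 lay in intron 20 with 1 match and MACS2 number 4100. Man1c1 (chr4:134117605-134260205, minus strand) had OS 1897 in intron 1, 40987 bp downstream of its nearest TSS, with 3 matches and MACS2 number 1889.

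Man1b1 (chr2:25187858-25207732, plus strand) encodes the alpha-1,2-mannosidase that trims N-glycans early and marks misfolded glycoproteins. Its OS 89 (chr2:25188093-25188333) lay 36 bp upstream of a TSS, closer than any other of the 25, and stood at number 46 in the MACS2 list. It held no WGATAR. Its sequence had 59.8% G and C and 26 CpG, and it held TTGCGCAA, a word of C/EBP sites. This was a single hit, 1 of the 25 OS, 4% (0.71 to 19.5), beside 5 of the 4384 other common OS, 0.114%. The word was among several searched in all 25, so nothing is read from it.

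OS within 1 kb of a TSS were also found at Galnt2 and Mgat1. Galnt2 (chr8:126755291-126869624, plus strand) encodes a transferase that starts O-glycans, and its OS 3708 (chr8:126755651-126755970) lay 402 bp downstream of a TSS in intron 1 with 1 match, 70.3% G and C and 33 CpG, the highest G and C content of the 25. It was MACS2 peak 2159. Mgat1 (chr11:49057693-49076532, plus strand) encodes the enzyme that opens the way from mannose-rich to complex N-glycans. Its OS 1327 lay 498 bp downstream of a TSS in intron 2 and was MACS2 peak 1001, and its single match, TGATAA, lay 1.5 bp from the midpoint. In all, 4 of 70 genes, 5.71% (2.24 to 13.8), had an OS within 1 kb of one of their TSS, beside 3.45% of all protein-coding genes. Of these 4 OS, those at Galnt2 and Mgat1 held WGATAR and those at Man1b1 and St3gal2 did not.

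The remaining 4 genes with an OS, B4galt3, B4galt6, B4galt7 and B3gnt2, had 1 each. B4galt3 (chr1:173200459-173207027, plus strand), which encodes an enzyme that adds galactose to N-acetylglucosamine, had OS 2613 at 3801 bp upstream of its TSS, with 2 matches. B4galt6, a lactosylceramide synthase gene, had OS 4086 in intron 1 with 1 match, 4835 bp downstream of its TSS. B4galt7 (chr13:55701257-55711804, plus strand), whose product adds the first galactose of the linker of glycosaminoglycans, had OS 2299 (chr13:55720778-55720909), the earliest of the family in the common list and MACS2 peak 1746. It lay 9039 bp past the gene end with 1 match, nearer to the TSS of Caml, which was 3523 bp away. B3gnt2 (chr11:22734747-22760961, minus strand), which encodes an enzyme that extends poly-N-acetyllactosamine chains, had OS 4359 at 2.59 kb past the gene end with 2 matches. It was the last of the 25 in the common list.

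**Figure D2:**
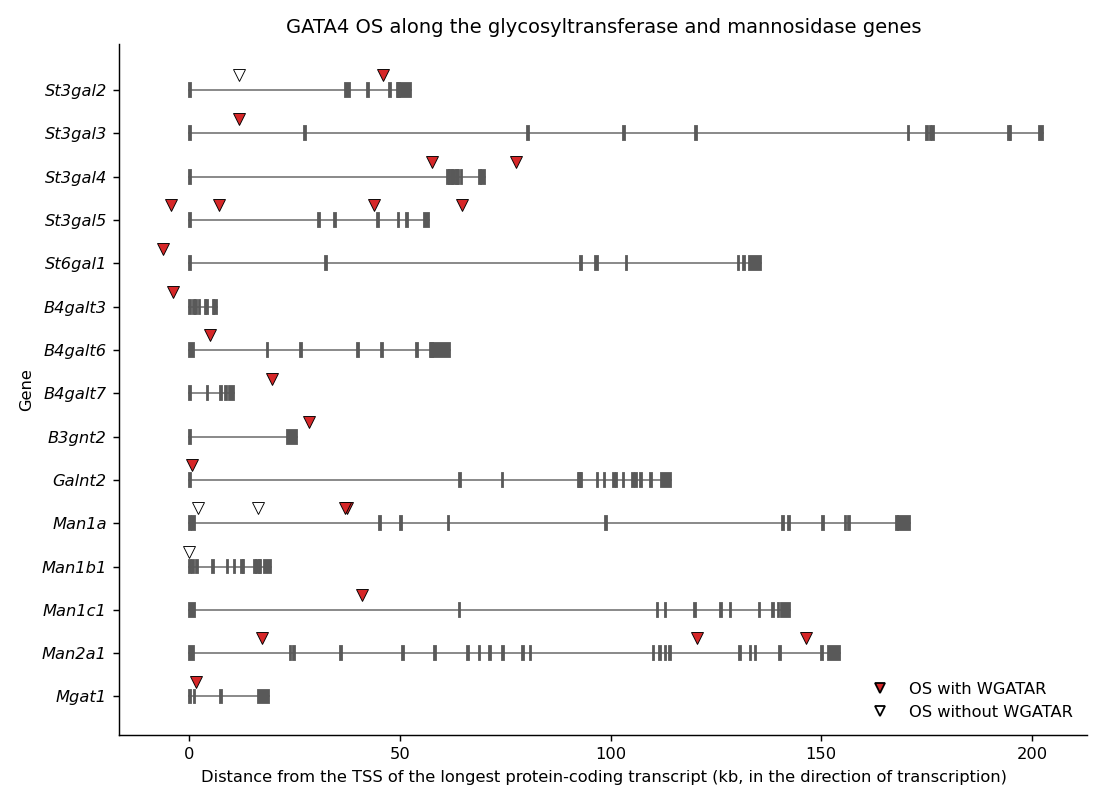
The 15 genes with a common GATA4 OS, drawn to scale from the TSS of their longest protein-coding transcript (x axis, kb, positive in the direction of transcription), with exons as boxes and OS as triangles, red with WGATAR and white without. Most OS lie within the gene, and the 4 white triangles are at Man1a, Man1b1 and St3gal2.

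Relative to the longest transcript of each gene, 17 of the 25 OS lay in introns, 68% (48.4 to 82.8), compared with 50.6% of the 4095 pairs of a protein-coding gene and an OS. First introns held 8 of them (32%, against 19.3%) and later introns 9 (36%, against 31.3%). The upstream and downstream flanks held 4 OS each, 16%, against 26.3% and 18.3%. Man1b1 OS 89 was counted in the upstream flank, although a shorter transcript of the gene starts farther upstream, so that its midpoint lay within the gene body. No OS had its midpoint in an exon of the longest transcript, which at 0 of 25 leaves a Wilson upper bound of 13.3%, and 4.84% of all pairs did. The interval of the intron share took in the value of all pairs. The median distance to the nearest TSS of the gene was 16296 bp (36 to 77611), with 4 OS within 1 kb, 7 from 1 to 10 kb, 11 from 10 to 50 kb and 3 beyond. The TSS of another protein-coding gene was nearer for 3 OS, 12% (4.17 to 30), those at B4galt7, St3gal2 (OS 1110) and St3gal4 (OS 2695). With all GENCODE M1 genes, non-coding ones included, it was nearer for 6 OS, 24%, which added B3gnt2 OS 4359, Man2a1 OS 2035 and St3gal4 OS 4.

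The 10 kb reach left some genes and OS close to its edge. The only OS of B4galt7 lay just inside, at 9039 bp from the gene body, and the only OS of St6gal1 lay at 6146 bp. OS 198 of St3gal5, at 7692 bp, and OS 2695 of St3gal4, at 7380 bp, were also inside. Both of these genes had other OS within the gene body. Fut1 lay just outside, with an OS at 11.2 kb, and so did B3gnt4 at 12.3 kb. The median distance of the 55 genes without OS to the nearest OS was 131 kb, from 11.2 kb to 5600 kb at Fut9, whereas it was 211 kb for all protein-coding genes without OS. St3gal1, whose product sialylates O-glycans, was without OS by the rule but had 5 OS within 50 kb. Of these, 3 lay upstream, from 14.7 to 41.8 kb away, and 2 downstream, at 15.4 and 39.6 kb, and its TSS was the nearest of a protein-coding gene to all 5. St3gal6, the other gene of the family without OS, had one at 14.8 kb downstream, nearer to the TSS of Dcbld2. With the reach at 50 kb all 6 St3gal genes would have an OS, as would 27 of the 70 genes, 38.6%, and 27.7% of all protein-coding genes. Genes of other families, among them Fut1, Fut2, B3gnt4 and Mgat3, would gain an OS too.

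**Figure D3:**
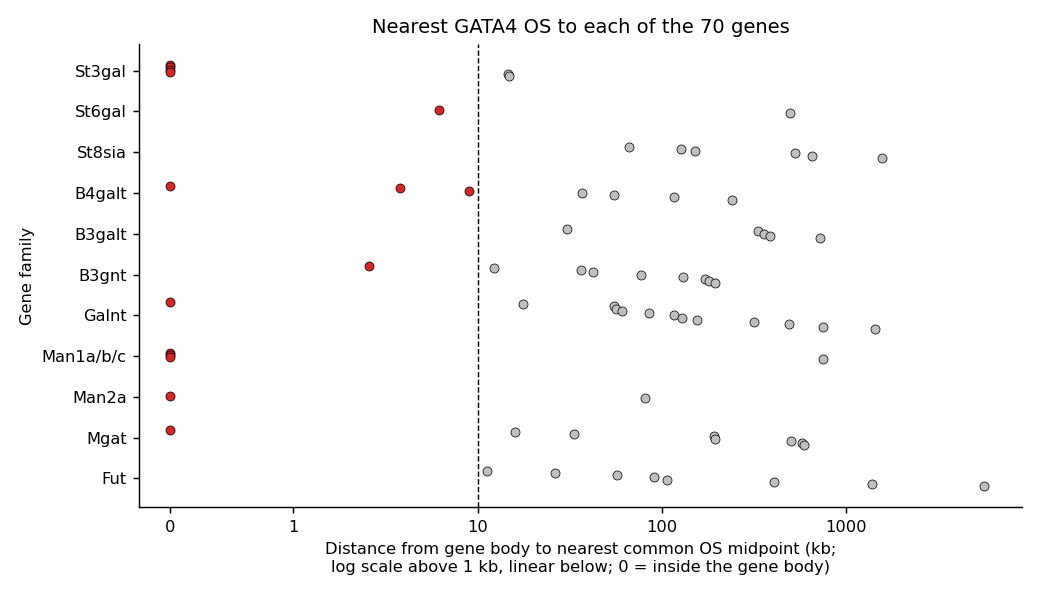
Distance from the gene body to the nearest common GATA4 OS (x axis, kb, log scale above 1 kb and linear below, with 0 for an OS inside the gene body) for the 70 genes by family, red within the 10 kb reach marked by the dashed line and grey beyond. Of the 6 St3gal genes 4 sit at 0 and 2 just past the line, and the St8sia, B3galt and Fut families have no red point.

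The OS of these genes were spread over the whole common list. Their numbers ran from 4 to 4359 with a median of 2299, and the median of all other common OS was 2204.5. Of 4 equal parts of the list, from its start, each held 7, 5, 7 and 6 of them. In the MACS2 list the numbers ran from 27 to 5221 with a median of 2159, against 2195.5. Widths had a median of 264 bp (84 to 373) against 190 bp for the others (80 to 631). G and C made up 49.2% at the median (37.8 to 70.3) against 49.4%. The median width was thus higher than that of the other OS, while the medians of list number and base composition lay close together. A width of exactly 320 bp recurred among these OS, as at B3gnt2 OS 4359 and Galnt2 OS 3708. How often it occurs in the rest of the list was not counted, so nothing is read from the widths.

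**Figure D4:**
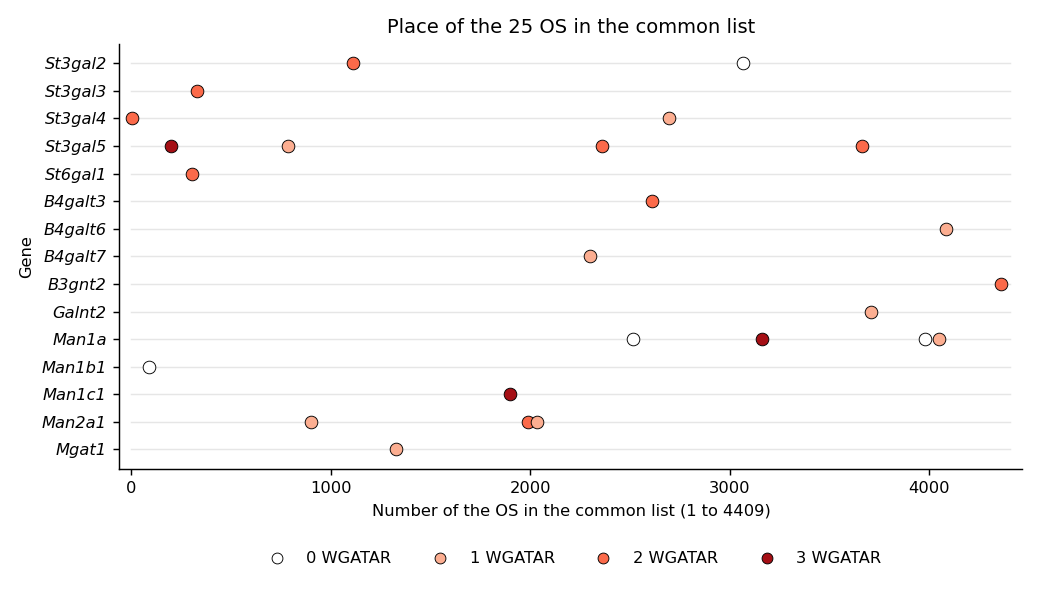
Number of each of the 25 OS in the common list of 4409 (x axis) by gene (y axis), coloured by the count of WGATAR matches. The points cover the list from 4 at St3gal4 to 4359 at B3gnt2.

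WGATAR was found in 21 of the 25 OS, 84% (65.3 to 93.6), and in 82.9% (81.7 to 84.0) of the 4384 other OS. In windows of equal width moved by 5000 bp it was found in 24%, and 31.9% for the other OS. By matches per OS, 4 OS had none, 9 had 1, 9 had 2 and 3 had 3, so that 36% had exactly 2, against 24.9% of the others. These counts were not corrected for width, with medians of 264 and 190 bp. In OS 327, OS 1897 and OS 4359 overlapping words counted as 2 matches. There were 36 matches, of which 13 read AGATAA, 10 AGATAG, 7 TGATAA and 6 TGATAG. Matches that end in G made up 16 of 36, 44.4%, against 28.4% of the 5698 matches in the other OS. Matches of the same OS are not independent, and overlapping words share bases. No interval is therefore given for this share, and nothing is read from it. Within 40 bp of the midpoint lay 20 of the 36, 55.6%, against 65.3%, also without correction for width. In the central 100 bp, a fixed stretch, WGATAR was found in 72% of the 25 OS (52.4 to 85.7) and 74.3% of the others. The 4 OS without WGATAR were 2 at Man1a and 1 each at Man1b1 and St3gal2, and that at Man1b1 held the shorter WGATA or GATAR.

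**Figure D5:**
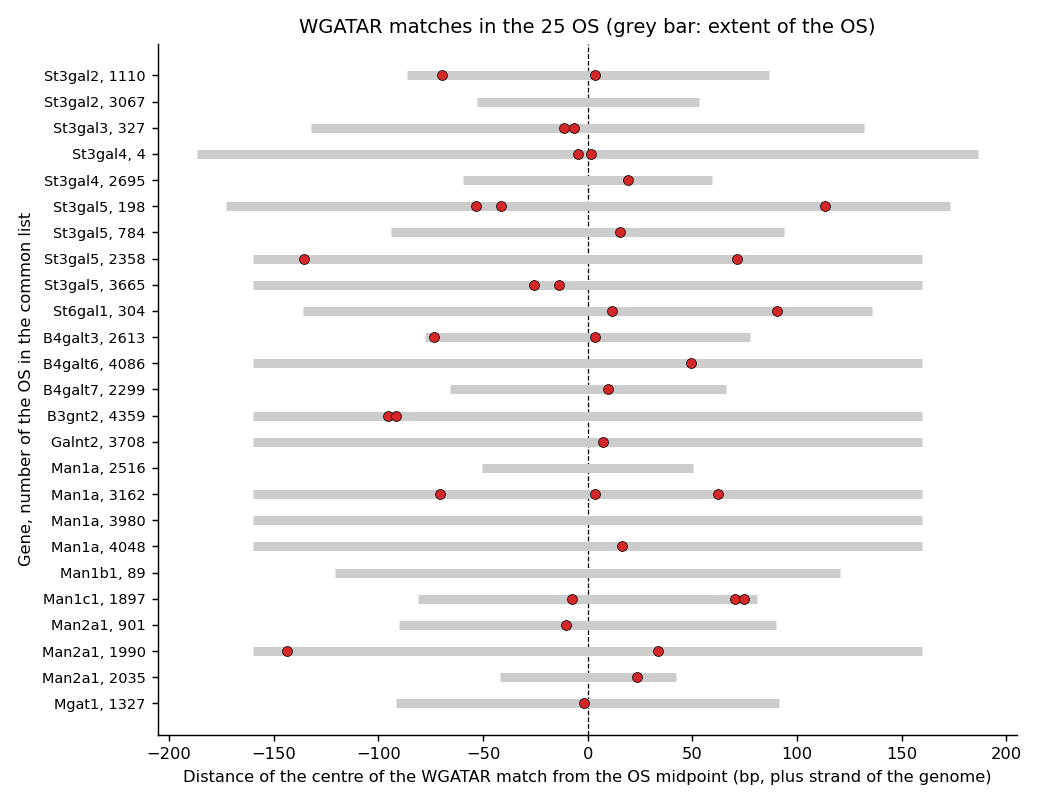
Position of the WGATAR matches in each of the 25 OS relative to the OS midpoint (x axis, bp), with the extent of each OS in grey. Of 36 matches 20 lie within 40 bp of the midpoint, and 6 OS have 2 matches close to each other.

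Pairs of matches that start at most 12 bp apart were seen in the sequences and then counted, so this is a description chosen after the values were seen. They occurred in 6 of the 25 OS, 24% (11.5 to 43.4), and in 5.47% (4.84 to 6.19) of the other OS. Among OS with at least 2 matches the counts were 6 of 12, 50%, against 15.8%. In St3gal4 OS 4 the 2 matches abut on opposite strands, 6 bp apart from start to start, and in St3gal5 OS 198 they lie on opposite strands 12 bp apart. In St3gal5 OS 3665 they lie 12 bp apart on 1 strand. In St3gal3 OS 327, Man1c1 OS 1897 and B3gnt2 OS 4359 the matches overlap, sharing 1, 2 and 2 bases, so a single stretch counted as 2 matches there. The limit of 12 bp equals the widest start gap among these 6 pairs. With pairs at most 30 bp apart the shares were 24% and 13.0%. Among OS with at least 2 matches they were then 50% and 37.6%.

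Other genes of glycosylation were taken from a list by pathway, written with earlier results of these data known. Of 150 genes 27 had an OS, 18% (12.7 to 24.9), with 32 OS in all, beside 13.7% of all protein-coding genes. Carriers of nucleotide sugars into the Golgi had none at 11 genes. Enzymes that make nucleotide sugars had an OS at 5 of 22, with 3 at Gmds, an enzyme of GDP-fucose synthesis, and 2 at Ugdh, which makes UDP-glucuronic acid. Of 25 genes for N-glycan assembly in the endoplasmic reticulum 4 had an OS, and those at Alg2 and Alg12 lay 69 and 115 bp upstream of a TSS. Trimming in the endoplasmic reticulum had an OS at 2 of 13 genes, with that of Edem3 88 bp upstream of a TSS. There were 2 of 17 among the other sialyl- and N-acetylgalactosaminyltransferases. The O-glycan core enzymes and O-linked transferases had an OS at 4 of 19, with that of Lfng, a modifier of Notch, 283 bp upstream. Glycosaminoglycan and glycolipid enzymes had 3 of 21, with 2 OS at Ext1, which builds heparan sulfate. Enzymes of glycan breakdown had 4 of 16. Of 6 receptors 3 had an OS: Mrc1, the macrophage and sinusoidal mannose receptor, with OS 62 and OS 1142, Clec4g, a lectin of sinusoidal endothelium, with an OS 183 bp upstream of its TSS, and Asgr1, a subunit of the asialoglycoprotein receptor, with one 4125 bp upstream.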

How the data were processed

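GATA4 ChIP-seq of whole liver was analysed from 3 deposited peak lists, of 4811 SPP, 5867 MACS2 and 4409 common peaks. Per the labels and methods, the authors aligned reads with bowtie 0.12.7 to mm9, kept unique reads, ran a modified SPP and MACS2 2.0.10 on each replicate and on the pooled reads against pooled input, set thresholds by IDR between replicates, and intersected the lists with bedtools 2.16.1, keeping SPP coordinates. The deposited score column holds 1000 for every peak. A planned upper part of the list by score was therefore taken by list number (up to 2204). The input has no file of its own.

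Genes were protein-coding entries of GENCODE M1 on NCBI Build 37 (mm9), 22380 entries merged by symbol to 22238. The 71 entries of the families gave 70 genes. Sequences came from the same build. A pair of words counted as close with starts at most 12 bp apart. Shares carry Wilson 95% intervals. No test was made, since the genes and lists were chosen with earlier results of these data known and 1 pooled sample was deposited. All genes with an OS are named, in full those with 3 or more, with an OS within 1 kb of a TSS, or earliest in their family, and of the other glycosylation genes those with 2 or more OS or 1 within 1 kb of a TSS. Asgr1 and the genes beyond the reach were named outside this rule. Alternatives were the reach, gene model, peak list, scanned stretch and overlap. Python 3.11.15, scipy 1.17.1, numpy 2.4.6 and matplotlib 3.10.9 were used, and the code was tested on simulated data.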

Additional observations from a re-analysis of the deposited data

How the results depend on the processing

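Of 40 alternative values, 28 differed from the value reported by less than the spread allowed (1.5 times for a count, the Wilson interval for a share) and 12 by more. The 28 include an overlap with MACS2 of at least 1 bp, which the common list requires, so that value could not differ. The 12 include the moved windows, which are a contrast and not another setting. The number of genes with an OS was 27 (38.6%, beside 27.7% of all protein-coding genes) with a reach of 50 kb and 9 (12.9%, beside 7.24%) in the upper part of the common list by number, against 15 (21.4%, beside 13.7%). The number of OS was 50 with 50 kb, 38 in the MACS2 list and 12 in the upper part, against 25. Genes with at least 2 OS numbered 13, 9 and 2 in these settings, against 5 (7.14%, beside 3.02% of all protein-coding genes). The shares of all protein-coding genes with at least 2 OS in these settings are not given, so nothing is read from the 13, 9 and 2. WGATAR was found in 24% and 40% of windows moved by 5000 and 50000 bp, against 84%. A reciprocal overlap of 50% with a MACS2 peak left 7 of 25 OS, a measure that depends on the greater width of MACS2 peaks. OS per 100 kb were 0.539 in the MACS2 list, against 0.354. The other limits for close pairs of words were chosen after seeing the data. No paired analysis was possible because 1 ChIP sample and 1 input sample are listed and the lists cover both replicates, and for the same reason no replicate could be left out. Without read counts the strength and depth of single sites are unknown.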

Other observations

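MACS2 listed 13 further peaks at 9 of the 70 genes that were not in the common list, and SPP listed none. Of these, 4 genes had no common OS: B4galt5 with 2 such peaks, and B4galt1, B3galt4 and Mgat4b with 1 each. St3gal4 had 3, of which one was centred 368 bp upstream of its TSS and was 1601 bp wide, and St3gal5 had 1 at 1334 bp upstream. With these, St3gal4 and St3gal5 each had 5 MACS2 peaks. The share of all protein-coding genes with a peak of MACS2 alone is not given, so nothing is read from these counts. Any MACS2 peak was found at 27.1% of the 70 genes, beside 17.4% of all protein-coding genes.

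Words of other factors were each found in at most 3 of the 25 OS. TGTTTAC, of forkhead sites, was found in 1 (4%, against 6.27% of the other OS), TGTTTGC in 2 (8%, against 6.46%), CCGGAAG, of ETS sites, in 1 (4%, against 4.95%) and CAAAGTCCA, of HNF4 sites, in 1 (4%, against 1.14%). The E-boxes CAGCTG and CAGATG were found in 3 each (12%, against 16.1% and 15.1%), and CAAAGGTCA, another HNF4 word, in none (1.44% of the other OS). TTGCGCAA, of C/EBP sites, was found in 1, that at Man1b1 (4%, against 0.114%). Man1a OS 2516 held both an HNF4 and a forkhead word and no WGATAR.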
